A study of Mus musculus with 22 samples.

Results

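Osteoclasts and chondroclasts are the cells that resorb bone and calcified cartilage, and 10 genes of their machinery were followed here in mouse cartilage and chondrocytes with the DNA methyltransferase gene Dnmt1 conditionally deleted. They were chosen by symbol: Mmp9, Acp5 and Ctsk (secreted enzymes), Csf1r and Tnfrsf11a (receptors), Tnfsf11 and Tnfrsf11b (the RANK ligand and its decoy receptor), and Atp6v0d2, Dcstamp and Ocstamp (a proton pump subunit and fusion proteins). All 10 were present among the 34866 gene identifiers of the culture tables and the 23911 of the cartilage table. The 22 samples came from controls carrying a floxed Dnmt1 gene and from conditional knockouts (cKO) labelled Prrx1-Cre;Dnmt1 flox/flox in the cultures and cKO in the tissue. Primary chondrocytes of knee articular cartilage were sampled untreated on day 0 (3 control, 3 cKO) and after BMP2 for 3 days, at 100 ng/µl per the labels (day 3; 4 control, 4 cKO). BMP2 is a growth factor that drives chondrocyte differentiation. Cartilage was taken at postnatal day 5 and digested with collagenase against connective tissue, from 4 control and 4 cKO samples. In both genotypes numbers 1 and 2 were male, 3 and 4 female. Prrx1-Cre is active in limb bud mesenchyme, the source of chondrocytes and osteoblasts, whereas osteoclasts arise from blood-forming cells. Strain was not given in the labels, nor whether the control animals carried Cre.

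As background, osteoclast precursors receive macrophage colony-stimulating factor through Csf1r and RANK ligand (Tnfsf11) through RANK (Tnfrsf11a). Chondrocytes, osteoblasts and stromal cells make RANK ligand, and also osteoprotegerin (Tnfrsf11b), a soluble decoy that binds it. Precursors then fuse, with Dcstamp and Ocstamp needed for fusion, acidify the matrix with a proton pump that contains Atp6v0d2, and digest it with cathepsin K (Ctsk), tartrate-resistant acid phosphatase (Acp5, TRAP) and gelatinase B (Mmp9). In a growth plate these cells work at the border where hypertrophic cartilage is replaced by bone.

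Depth and sample checks bear on every value below. Total counts per sample were 41749327 to 51741478 on day 0, 14434197 to 18918714 on day 3 and 1100198 to 1888896 in cartilage, so a count of 3, used as a detection floor, corresponded to 0.0557 to 0.0691, 0.151 to 0.211 and 1.54 to 2.75 counts scaled to a common library size (CPM). Dnmt1 was lower in every cKO sample than in every control of its table, with log2 fold changes of −2.44 (adjusted p 1.62e-08), −1.41 (adjusted p 0.00625) and −1.66 (adjusted p 6.34e-05). The cartilage controls belonged to library pool 1 and the cKO samples to pool 2, so pool and genotype cannot be told apart there. On day 3, cKO replicate 4 stood apart: 15 chondrocyte markers summed to 1881 CPM in it and to 13740 to 19360 CPM in the other cKO cultures. Day 3 results that rest on it are given with and without it for members that passed the filter. In cartilage the same markers summed to 76430 to 112600 CPM in control and 37880 to 69900 CPM in cKO libraries. The replicates were labelled as separate samples, in the cultures as biological replicates; animals or litters were not identified, so p-values measure the spread between these samples, which may in part be technical.

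In cartilage the secreted enzymes of bone resorption were lower in cKO mice. Mmp9 and Acp5 fell by more than 3 on the log2 scale and Ctsk by less than 1, and none of the 10 genes was called higher. In bulk tissue, fewer cells of a type and less RNA per cell cannot be told apart. Of the 10 genes, 4 passed the count filter, and 3 of these 4 were called lower by edgeR's quasi-likelihood test, against 3.04% of all 8793 genes tested in that direction, 3.15% in the other and 6.19% in either. On GRCm38 (GENCODE M21) these genes span chr2:164940780-164955850 (Mmp9, plus strand), chr9:22126727-22135711 (Acp5, minus strand) and chr3:95499256-95509362 (Ctsk, plus strand). Mmp9 and Acp5 passed the filter through the control libraries, so a difference was a condition of their being tested, and the count of 3 carries no further weight.

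Mmp9 was 30.0, 214.2, 164.2 and 218.3 CPM over the control replicates and 0.840, 21.9, 1.78 and 0.861 CPM over the cKO replicates, numbered 1 to 4. The groups did not overlap, as was so for 6.40% of all genes with cKO lower, 7.12% with cKO higher and 13.5% in either direction. The lowest control and the highest cKO library, both male, were close to each other. Averages came to 156.7 ± 87.9 CPM and 6.34 ± 10.4 CPM (SD, n = 4 each). On the log2 scale the fold change was −4.59 with an SE of 0.682 (edgeR adjusted p 5.12e-04). The raw counts behind this were 40, 251, 179 and 424 against 1, 25, 2 and 1, so 3 of the 4 cKO libraries lay at or under the floor. Without cKO replicate 2 the fitted log2 value was −7.07 (adjusted p 3.245e-05), which is no bound, since the remaining cKO libraries all lay under the floor, and without control replicate 2 it was −4.02 (adjusted p 0.00245).

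Acp5, whose phosphatase is the classical histochemical stain for osteoclasts, was 12.8, 52.05, 47.7 and 41.7 CPM in control replicates 1 to 4. In cKO replicates 1 to 4 it was 0.840, 3.50, 6.24 and 3.45 CPM. Every cKO library was below every control library, and the lowest values of both groups were in replicate 1. Averages came to 38.6 ± 17.7 CPM and 3.51 ± 2.21 CPM (SD, n = 4 each). On the log2 scale the fold change was −3.42 with an SE of 0.459 (edgeR adjusted p 1.90e-04). The call was kept under all 14 alternatives, with log2 fold changes of −3.75 to −3.00. The same held for Mmp9, at −7.07 to −4.02.

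Ctsk, the collagen-cleaving protease of osteoclasts, is also made by other skeletal cells. It was 80.3, 159.6, 103.6 and 187.4 CPM over the control replicates and 56.3, 68.2, 109.7 and 70.6 CPM over the cKO replicates, numbered 1 to 4. Of the cKO libraries, replicates 1, 2 and 4 lay below all controls and replicate 3 lay above control replicates 1 and 3. The log2 fold change was −0.82 (SE 0.228, edgeR adjusted p 0.0452). The call was lost in 5 of the 8 fits that left out 1 library (control replicates 2 and 4, cKO replicates 1, 2 and 4), where the adjusted p ran from 0.0578 to 0.155, and without the sex term (adjusted p 0.0688).

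**Figure D1:**
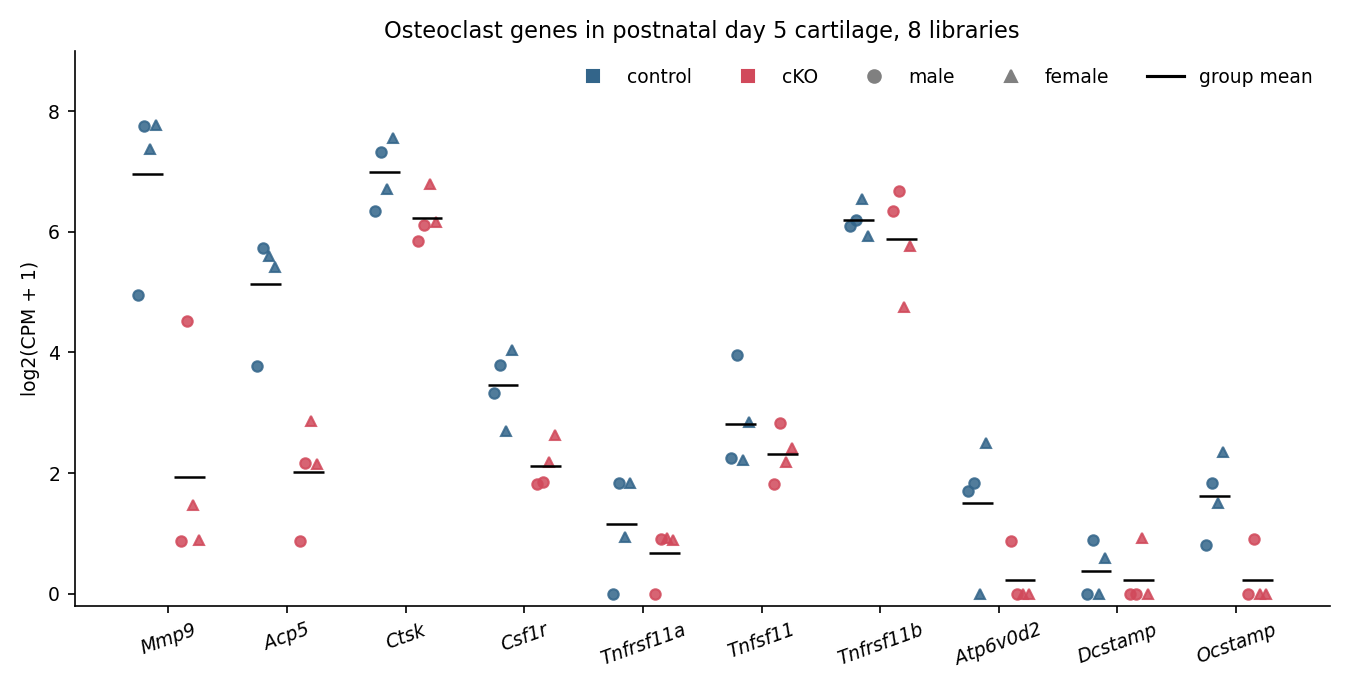
Level of each of the 10 genes in 8 cartilage libraries, as log2(CPM + 1), with control in blue, cKO in red, circles for males, triangles for females and lines for group means. Mmp9 and Acp5 separate the genotypes, Ctsk and Tnfrsf11b overlap, and the cKO libraries of Dcstamp, Atp6v0d2, Ocstamp and Tnfrsf11a all lie below 1 CPM.

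The remaining members in cartilage were sparse. Csf1r, the receptor that keeps osteoclast precursors and macrophages alive, had 12, 15, 6 and 30 counts in control and 3, 3, 4 and 6 counts in cKO replicates 1 to 4. Scaled for depth, this was 5.50 to 15.5 CPM against 2.52 to 5.17 CPM, without overlap. An exact two-sided permutation test of log2(CPM + 1) gave p = 0.0286, the smallest that 4 against 4 samples allow. Adjusted over the 6 genes tested this way, the permutation p was 0.171. In the estimated counts of the same libraries the groups overlapped, at 14.5 to 23.9 CPM and 5.98 to 17.0 CPM (exact permutation p = 0.0857). A fit with no filter called Csf1r lower in the whole-number counts (log2 fold change −1.69, edgeR adjusted p 6.925e-04). In that fit the edgeR adjusted p of Mmp9 was 4.58e-83, against 5.12e-04 with the filter. The p-values of the unfiltered fit thus cannot be set beside those of the main test. In the estimated counts Csf1r passed the filter, was tested by edgeR and was not called.

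Ocstamp had 1, 3, 2 and 8 counts in control and 0, 1, 0 and 0 in cKO replicates 1 to 4 (exact permutation p = 0.0571). Atp6v0d2 had 3, 3, 0 and 9 against 1, 0, 0 and 0 (exact permutation p = 0.143). Tnfrsf11a had 0, 3, 1 and 5 against 0, 1, 1 and 1 (exact permutation p = 0.229). For all of these most libraries lay at or under the floor of 3 counts, so a genotype difference was not detectable at this depth in the whole-number counts. Estimated counts of Ocstamp were 7, 7, 4 and 21 in control and 1, 5, 0 and 1 in cKO replicates 1 to 4. For Tnfrsf11a they were 4, 6, 4 and 11 against 1, 3, 4 and 2. The exact permutation p was 0.0571 for each, and 0.171 adjusted over 6 genes. Estimated counts of Atp6v0d2 were 4, 3, 0 and 11 against 2, 0, 0 and 0 (exact permutation p = 0.143). In the whole-number counts Dcstamp had at most 1 count in any library. The ligand Tnfsf11 had 5, 17, 4 and 12 counts in control and 3, 7, 4 and 5 in cKO replicates 1 to 4 (exact permutation p = 0.343).

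The decoy receptor Tnfrsf11b was well measured in cartilage and was not called. It was 67.5, 72.5, 91.7 and 59.7 CPM among controls against 79.8, 101.5, 25.9 and 53.4 CPM among cKO, each from replicate 1 to 4, a log2 fold change of −0.21 (95% interval −0.71 to 0.28, edgeR adjusted p 0.665). The cKO libraries lay on both sides of the controls, the males above and the females below the control mean. Female minus male, the genotype effect differed by −1.27 on the log2 scale, with an unadjusted p of 0.00696 and an adjusted p of 0.875. None of the 4 members tested was called in that comparison, in which edgeR called 0.0114% of genes (1 of 8793) and 437 had an unadjusted p under 0.05.

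Markers of other cells in the same cartilage libraries moved with genotype too. Of 10 red cell and B cell markers, 4 passed the filter, all globin genes. All 4 were called lower in cKO, where 3.04% of all genes were called lower. They were Hba-a2 (−2.16), Hbb-bs (−1.92), Hba-a1 (−1.90) and Hbb-bt (−1.79), with edgeR adjusted p of 0.00854 to 0.0231. On their cKO libraries alone they would not have passed the filter, so a difference was in part a condition of their being tested. The globin genes summed to 163.6 to 915.9 CPM in control and 13.4 to 388.9 CPM in cKO libraries, with overlap, and 0 of the 4 were called by DESeq2, without the sex term or without cKO replicate 4, and 1 without control replicate 4. Of 12 hypertrophic chondrocyte markers, 11 passed and 7 were called lower, against the same 3.04% of all genes. The 7 were led by Mmp13 (−2.17), a collagenase of late hypertrophic cells, Panx3 (−1.65), Col10a1 (−1.48) and Ihh (−1.48). That count was 2 without control replicate 2, cKO replicate 1 or cKO replicate 4, 4 without control replicate 3 or 4, and 3 by DESeq2 or without the sex term. The part of blood content and of hypertrophic tissue in the enzymes' fall was not tested.

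Of 20 macrophage and monocyte markers, 5 passed the filter and 0 were called in cartilage, and the 20 genes summed to 79.4 to 151.9 CPM in control and 65.5 to 173.2 CPM in cKO libraries. The median log2 fold change of those that passed was 0.28, and the markers did not move one way. Cd68, a lysosomal protein of macrophages and osteoclasts, was under the filter, at 6.83 to 14.4 CPM in control and 1.72 to 7.14 CPM in cKO libraries. Means of C1qa (9.46 CPM in control, 15.5 CPM in cKO) and Ctss (4.98 and 10.25 CPM) went the other way. Of 25 other genes of osteoclast signalling and transcription, 12 passed and 0 were called, with a median log2 fold change of −0.06 against 0.01 for all genes. The list includes Nfatc1, the master transcription factor of osteoclasts, which is also active in cartilage cells and stood at 402.3 to 510.9 CPM in control and 289.9 to 375.2 CPM in cKO libraries. Csf1, of the same list, went the other way, at 36.7 to 61.8 CPM in control and 55.1 to 83.0 CPM in cKO libraries. Of 23 genes of acid secretion, most of them pump subunits found in all cells, 19 passed and 0 were called (median 0.02). Of the 12 endothelial markers 8 passed and of the 12 osteoblast and osteocyte markers 4 passed, and 0 were called in either list (medians −0.25 and −0.92). Without cKO replicate 2, 3 osteoblast markers were called lower, as were 5 without the filter. Neutrophil markers did not pass, the 8 synovial markers gave 0 calls, and of 3 muscle markers that passed 2 were higher (1 to 3 when 1 library was left out). All 15 chondrocyte markers passed and 4 were called lower, with a median of −0.45, where 3.04% of all genes were called lower. That count was 1 to 4 when 1 library was left out and 4 to 10 under the other alternatives.

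**Figure D2:**
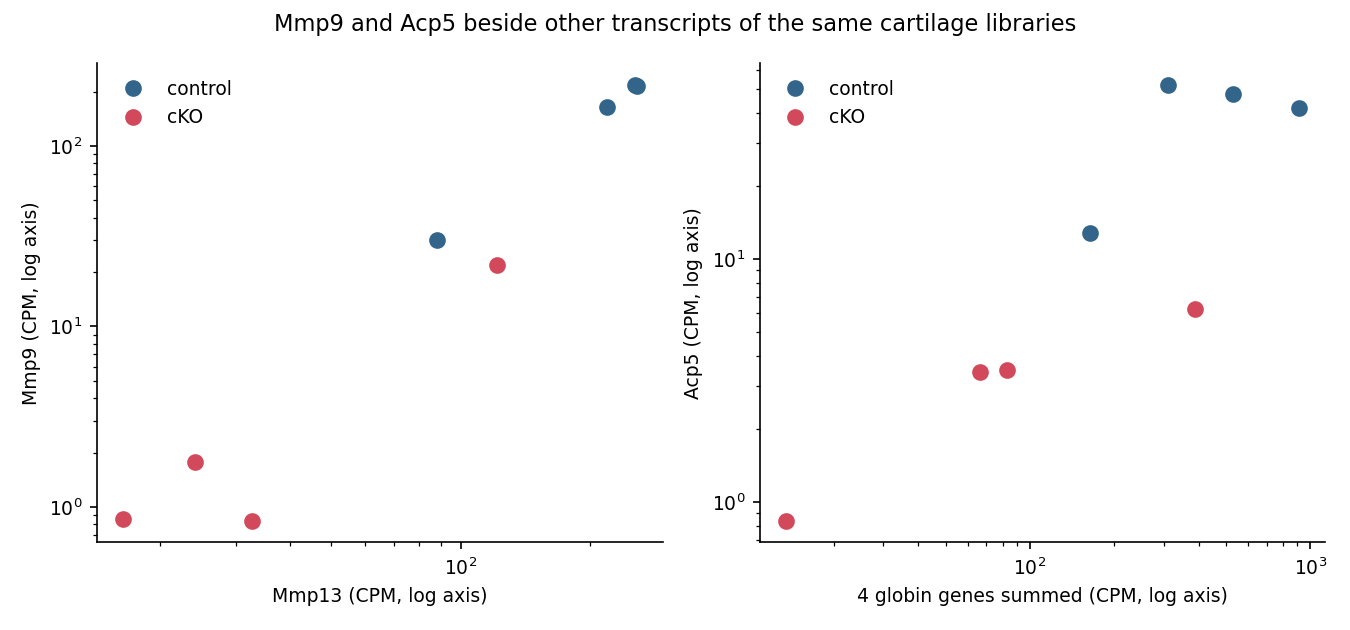
Each point is 1 of the 8 cartilage libraries (control blue, cKO red), on logarithmic axes in CPM, with Mmp9 against Mmp13 at left and Acp5 against 4 summed globin genes at right. The cKO library with 21.9 CPM of Mmp9 is also the one with the most Mmp13 among cKO libraries, 121.6 CPM, and the control with the least Mmp9 has the least Mmp13, 87.8 CPM.

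The genes whose levels ran most closely with Mmp9 over the 8 cartilage libraries, among 8792 ranked by Pearson's r of log2(CPM + 1), were Cpz (0.988), Gm2a (0.978), 2900097C17Rik (0.977), Adam15 (0.976) and Mmp13 (0.976). With each genotype's mean removed, r with Mmp13 was 0.950. For Acp5 they were Col12a1 (0.981), Clec11a (0.977), Ubqln4 (0.969), Rasa3 (0.967) and Sh3bgrl (0.960). Acp5 and Mmp9 had an r of 0.912 with each other, which was 0.576 once the genotype means were removed. With the same centring Acp5 had an r of 0.958 with Col12a1 and 0.823 with Hba-a1. Mmp9 had one of 0.961 with Cpz and 0.300 with Hba-a1. Pool and genotype divide these 8 libraries in the same way, and that division enters every r not centred. The values are descriptions and carry no test.

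Dnmt1 copies methylation at CpG dinucleotides to new DNA strands, and methylation itself was not measured in the values used here. The CpG content of promoters is shown for 3 members that changed, with every CpG in capitals. Each window runs from 250 bases before to 50 after a transcription start in RefSeq on GRCm38.p6, written 5′ to 3′ on the gene's strand. They are the most downstream of 3 Acp5 windows, chr9:22130549-22130848 on the minus strand, the Ctsk window, chr3:95498960-95499259 on the plus strand, and the Tnfsf11 window, chr14:78307994-78308293 on the minus strand.
Acp5: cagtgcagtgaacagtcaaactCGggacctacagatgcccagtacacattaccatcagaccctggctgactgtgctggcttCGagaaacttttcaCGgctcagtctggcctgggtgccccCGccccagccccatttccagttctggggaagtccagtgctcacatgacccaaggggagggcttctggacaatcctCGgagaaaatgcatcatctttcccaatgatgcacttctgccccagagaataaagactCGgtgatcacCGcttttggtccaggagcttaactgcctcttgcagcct
Ctsk: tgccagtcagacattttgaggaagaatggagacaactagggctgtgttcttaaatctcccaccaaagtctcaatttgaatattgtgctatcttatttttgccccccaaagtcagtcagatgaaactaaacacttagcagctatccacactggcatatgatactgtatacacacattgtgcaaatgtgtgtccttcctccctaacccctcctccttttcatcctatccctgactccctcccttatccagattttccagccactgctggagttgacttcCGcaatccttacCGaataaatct
Tnfsf11: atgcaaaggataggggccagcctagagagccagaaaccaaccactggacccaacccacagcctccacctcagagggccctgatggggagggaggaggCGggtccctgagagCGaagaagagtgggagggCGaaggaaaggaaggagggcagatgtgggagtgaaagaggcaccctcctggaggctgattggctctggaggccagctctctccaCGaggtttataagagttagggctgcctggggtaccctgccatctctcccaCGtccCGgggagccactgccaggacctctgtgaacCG

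The Acp5 window holds 7 CpGs, the median of all 32851 windows, and the Ctsk window 2, as few as or fewer than which are found in 23.3% of windows. Tnfsf11 holds 7. The other Acp5 windows hold 17 and 4, and the Tnfrsf11a window, at chromosome 1, holds 43, with 97.8% of windows at or below that number. Of the 4 motifs searched on both strands, TCATGTG (the box bound by Mitf) lies in the Acp5 window shown, starting at base 161, and in 3.77% of all windows. GAGGAAG (bound by PU.1) lies in the Ctsk window, at bases 18 and 192, and in 13.6% of all windows. TGGAAA (bound by NFAT) lies in both, at base 134 of Acp5 and base 251 of Ctsk, and in 21.4% of all windows. TGANTCA (bound by AP-1; N is any base) lies in none of the 6 member windows and in 7.81% of all. Matches are descriptions of letters, not binding sites. The windows of Mmp9, Csf1r, Tnfrsf11b, Atp6v0d2, Dcstamp and Ocstamp are not shown.

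In untreated chondrocytes of day 0 the ligand and its decoy moved in opposite directions. Tnfsf11 fell and Tnfrsf11b rose in cKO cultures, Ctsk fell, and the low transcripts of Csf1r, Mmp9 and Tnfrsf11a were higher. Of the 10 genes 8 passed the filter, 4 were called higher and 2 lower, where 33.0% and 31.6% of all 15530 genes were called in those directions, and 64.5% in either. The share of members called is thus close to the background.

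Tnfsf11 was 6.33, 6.29 and 5.31 CPM among controls against 1.68, 1.74 and 1.43 CPM among cKO, each from replicate 1 to 3. The groups lay far apart, at 5.98 ± 0.578 and 1.62 ± 0.165 CPM (SD, n = 3 each). On the log2 scale the fold change was −1.89 with an SE of 0.128 (edgeR adjusted p 2.00e-06). Tnfrsf11b was 119.5, 111.3 and 117.7 CPM among controls against 260.2, 280.8 and 250.5 CPM among cKO, each from replicate 1 to 3. Every cKO culture had over 2 times the decoy transcript of any control (log2 fold change 1.18, SE 0.0471, edgeR adjusted p 9.53e-08). Both calls were kept under all 11 alternatives. On day 0 the groups of 70.3% of all genes did not overlap, 35.9% with cKO higher and 34.4% with cKO lower. On the same build Tnfsf11 spans chr14:78277445-78308043 and Tnfrsf11b chr15:54250619-54278484, both on the minus strand.

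Within a library, the log2 ratio of Tnfsf11 to Tnfrsf11b counts needs no scaling. On day 0 it was −4.24, −4.14 and −4.47 in control and −7.26, −7.33 and −7.45 in cKO replicates 1 to 3. The means were −4.28 ± 0.17 and −7.35 ± 0.09 (SD, n = 3 each), so a ligand count stood against 19.5 decoy counts in control and 162.6 in cKO cultures. On day 3 the ratio was −6.56 ± 0.55 and −7.24 ± 1.25 (SD, n = 4 each), and in cartilage −3.51 ± 0.97 and −3.74 ± 0.86 (SD, n = 4 each). In both the genotypes overlapped. On day 3 cKO replicate 4 was at −9.10 and the other cKO cultures at −6.74 to −6.43, within the control range of −7.29 to −6.09.

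**Figure D3:**
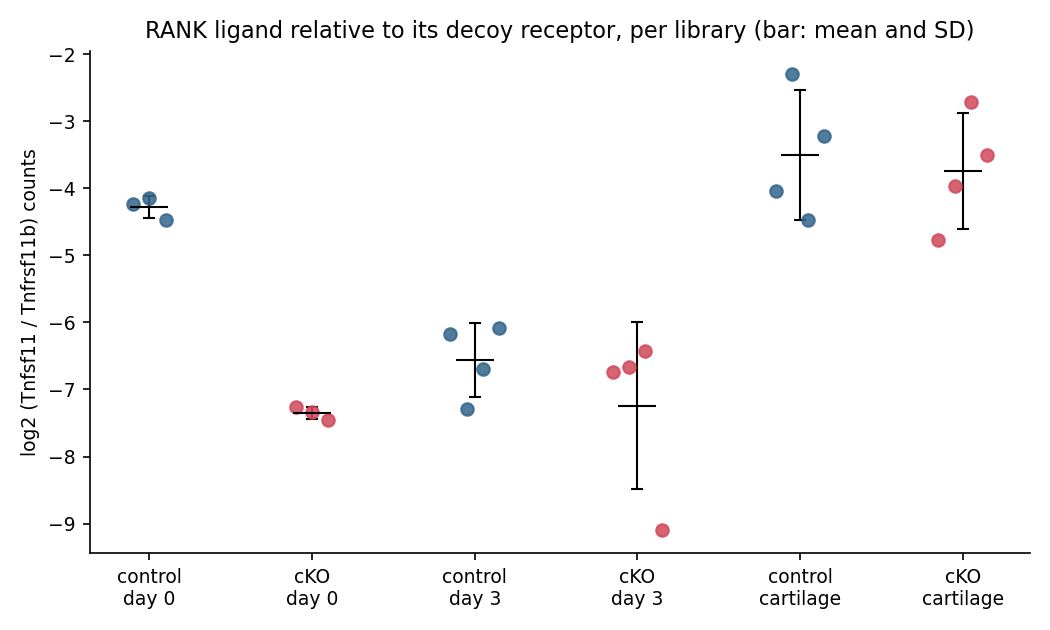
Log2 ratio of Tnfsf11 to Tnfrsf11b counts, with 0.5 added to each, in every library of 6 groups; points are libraries (control blue, cKO red), lines the means and bars the SD. The day 0 genotypes lie apart by 3.06 on the log2 scale, whereas those of day 3 and cartilage overlap.

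Ctsk on day 0 was 156.8, 161.5 and 157.4 CPM among controls against 71.0, 85.02 and 81.0 CPM among cKO, each from replicate 1 to 3. This was 2.01-fold lower, with an SE of 0.0579 on the log2 scale (edgeR adjusted p 8.35e-07). The groups did not overlap, but in a fit of all 14 cultures the call was lost (adjusted p 0.0632). Acp5 stood at 0.860 to 0.954 CPM in control and 0.898 to 1.08 CPM in cKO cultures and was not called (log2 fold change 0.08, 95% interval −0.27 to 0.44). Ocstamp was not called either (−0.23, 95% interval −0.80 to 0.34).

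The receptors were rare transcripts on day 0. Csf1r was 0.566, 0.406 and 0.221 CPM among controls against 0.806, 1.36 and 0.798 CPM among cKO, each from replicate 1 to 3 (log2 fold change 1.30, SE 0.358, edgeR adjusted p 0.0107). Tnfrsf11a was 0.315, 0.508 and 0.421 CPM against 0.691, 0.660 and 0.686 CPM (0.71, edgeR adjusted p 0.0314). Neither receptor's groups overlapped. The Tnfrsf11a call was lost in 5 of 6 fits without 1 culture, every one except that without control replicate 2, by DESeq2 (adjusted p 0.113) and without the filter (adjusted p 0.0612). Mmp9, at 0.252, 0.142 and 0.244 CPM against 0.668, 0.308 and 0.445 CPM (1.15, edgeR adjusted p 0.0260), lost its call by DESeq2 (adjusted p 0.0539), in the fit of all 14 cultures (adjusted p 0.0901) and without control replicate 2 or cKO replicate 1. With 7 counts in control replicate 2, Mmp9 passed the filter through the cKO cultures, so a difference was a condition of its being tested. Atp6v0d2 had at most 5 and Dcstamp at most 6 counts in any culture of day 0.

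After BMP2, on day 3, Csf1r had the largest fold change among the members that passed the filter, and Tnfrsf11b was again higher in cKO cultures. Of the 10 genes 6 passed the filter and 3 were called higher (Csf1r, Tnfrsf11b, Acp5) and 0 lower, against 25.5% of 13924 genes called higher, 22.6% lower and 48.1% in either direction. Groups did not overlap for 47.9% of all genes, 25.2% with cKO higher and 22.7% with cKO lower. Csf1r passed the filter through the cKO cultures, so a difference was a condition of its being tested. Without cKO replicate 4, Tnfsf11 was also called higher and Ctsk lower.

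Csf1r was 0.421, 0.279, 0.186 and 0.338 CPM among controls against 1.86, 3.84, 3.02 and 3.92 CPM among cKO, each from replicate 1 to 4. Control cultures had 3 to 6 counts and cKO cultures 32 to 76, or 0.306 ± 0.0992 CPM against 3.16 ± 0.955 CPM (SD, n = 4 each). The log2 fold change was 3.35 (SE 0.350, edgeR adjusted p 1.43e-04), with a call under all 13 alternatives. The genotype effect on Csf1r was larger on day 3 than on day 0 by 2.05 on the log2 scale (edgeR adjusted p 0.0235), a call kept in 13 of 17 alternatives and lost without day 0 control replicate 1 or 2 or day 0 cKO replicate 1 or 3 (adjusted p 0.0539 to 0.0755).

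Tnfrsf11b was 83.9, 91.3, 80.1 and 71.4 CPM among controls against 276.7, 260.2, 300.8 and 117.9 CPM among cKO, each from replicate 1 to 4 (log2 fold change 1.55, SE 0.262, edgeR adjusted p 0.00163). All cKO cultures were above all controls, replicate 4 by the least. Acp5 was 3.09, 3.01, 2.11 and 2.23 CPM against 3.73, 4.49, 3.61 and 4.47 CPM (0.64, SE 0.191, edgeR adjusted p 0.0225). Its groups did not overlap either, but the call was lost without control replicate 3 or 4 or cKO replicate 2 (adjusted p 0.0602 to 0.0683).

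Tnfsf11 on day 3 was 1.12, 0.557, 0.744 and 1.01 CPM among controls against 2.56, 2.52, 3.45 and 0.184 CPM among cKO, each from replicate 1 to 4. In cKO replicates 1 to 3 it was above every control, and in replicate 4 below every control. With all 8 cultures the log2 fold change was 1.35 (SE 0.654, edgeR adjusted p 0.120), and without cKO replicate 4 it was 1.73 (adjusted p 7.28e-04). The estimate was opposite in sign to that of day 0, and the difference between the days was 3.24 on the log2 scale (SE 0.745, edgeR adjusted p 0.0112), called under all 17 alternatives. For that difference edgeR called 16.8% of 14909 genes, 9.94% higher and 6.89% lower, and 2 of the 7 members tested, both higher.

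Ctsk was 127.8, 111.8, 110.9 and 139.0 CPM among controls against 98.3, 111.7, 95.1 and 371.7 CPM among cKO, each from replicate 1 to 4. With replicate 4 the log2 fold change was 0.47 (edgeR adjusted p 0.406), and without it −0.27 (adjusted p 0.0363), so the sign turned on that culture. Atp6v0d2, the osteoclast-type pump subunit, had 0, 0, 1 and 0 counts in control and 3, 5, 2 and 59 in cKO replicates 1 to 4. It did not pass the filter, and all controls lay under the floor. A fit with no filter called it higher (edgeR adjusted p 0.0264), but replicate 4 held 59 of the counts, and no such fit was made without that culture. Tnfrsf11a was 0.874, 0.404, 0.539 and 2.33 CPM in cKO replicates 1 to 4, against 0.406 to 0.780 CPM in controls (0.66, edgeR adjusted p 0.365, and −0.11, adjusted p 0.824, without replicate 4). The same culture was thus the highest of its group for Ctsk, Atp6v0d2 and Tnfrsf11a. It also had the highest Itgb3 (79.9 CPM, from 3.55 CPM upward in the group), an integrin subunit of osteoclasts, and had 376 counts of Prdm1. The 25 other osteoclast signalling genes summed to 2073 CPM in it and to 1658 to 1665 CPM in the other cKO cultures. For the acid secretion genes the sums were 2837 CPM and 1866 to 1938 CPM. Not every osteoclast gene stood out in it. Acp5 was 4.47 CPM there and 4.49 CPM in cKO replicate 2, and Mmp9 was 0.368 CPM, within the group's 0.151 to 0.699 CPM. Tyrobp and Calcr had 0 counts in it and Spi1 at most 1. Mmp9, Ocstamp and Dcstamp did not pass the filter, with at most 14, 8 and 3 counts.

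**Figure D4:**
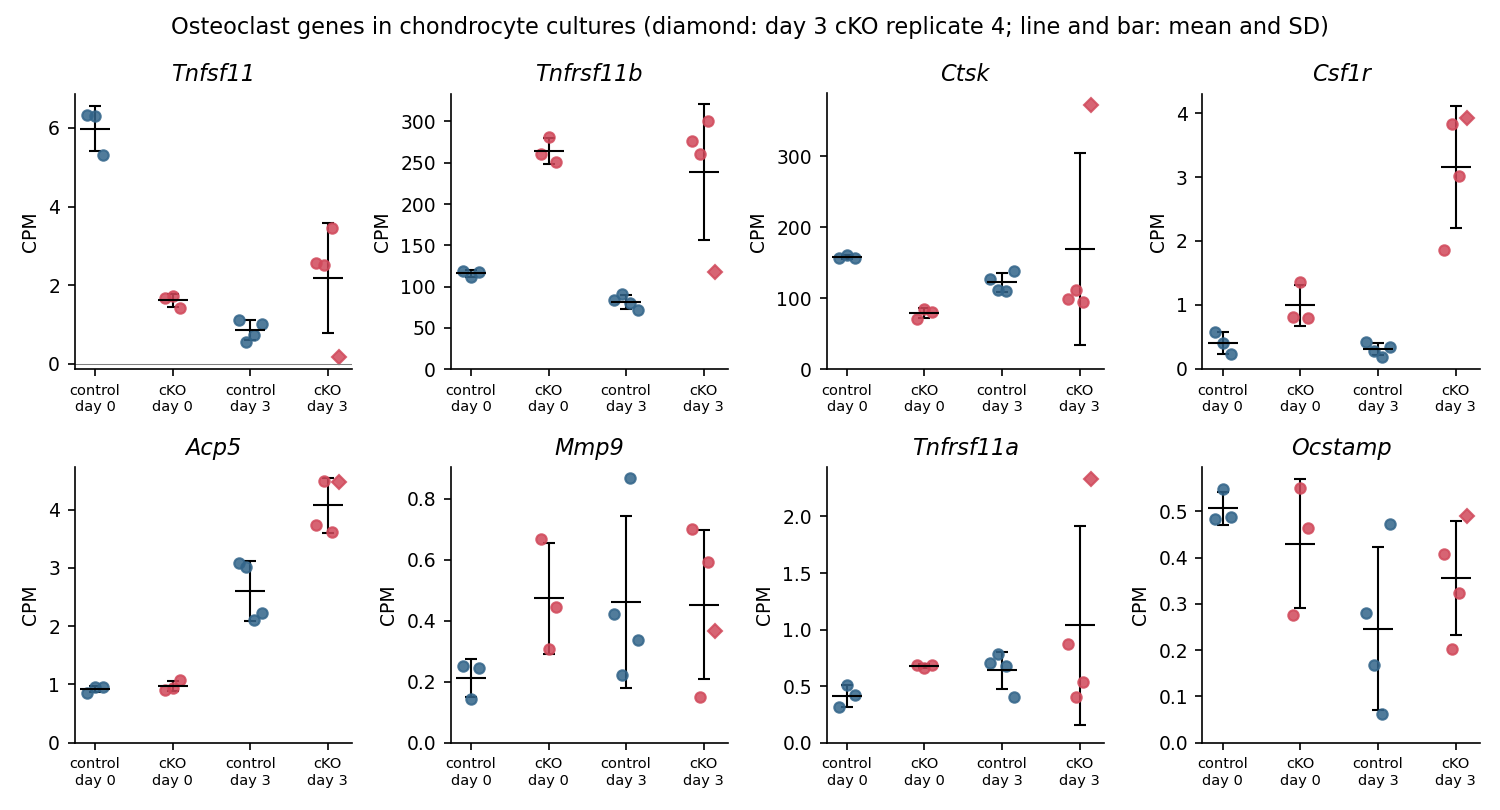
CPM of 8 members in each culture, by genotype and day (control blue, cKO red); black lines and bars are means and SD, and the diamond is cKO replicate 4 of day 3. Tnfsf11 and Tnfrsf11b part the genotypes on day 0, Csf1r on day 3, and the diamond lies apart for Ctsk, Tnfrsf11a, Tnfsf11 and Tnfrsf11b.

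From day 0 to day 3, Tnfsf11 fell in control cultures by 2.91 on the log2 scale (edgeR adjusted p 4.77e-04) and in cKO cultures had a change of 0.33 (adjusted p 0.586). Without cKO replicate 4 of day 3 the latter was 0.71 and was called (adjusted p 0.00522), and without cKO replicate 3 of day 3 it was −0.01. Acp5 rose in both genotypes, by 1.40 (adjusted p 3.42e-05) and 1.94 (adjusted p 1.99e-06). In control cultures 1 of 7 members tested was called higher and 2 lower, where 28.1% of all genes were called higher, 28.8% lower and 56.9% in either direction. The lower ones were Tnfsf11 and Tnfrsf11b (−0.61), the latter called in 6 of 15 alternatives. In cKO cultures 3 were called higher and 0 lower (Acp5, Csf1r at 1.56 and Ctsk at 0.97), where 32.4% of all genes were called higher, 29.8% lower and 62.2% in either direction. The Ctsk call was kept in 5 of 15 alternatives, and without cKO replicate 4 of day 3 its change was 0.26 and was called. Day, BMP2 and count table changed together in these contrasts and cannot be told apart.

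Per kilobase of exon, Ctsk and Tnfrsf11b were the most abundant members in all 4 culture groups. In control cultures of day 0 their mean levels were 105.0 and 41.2 CPM per kilobase, in that order, and in cKO cultures 52.3 and 93.6, in the reverse order and without overlap in either group. On day 3 the levels were 81.1 and 28.97 in control cultures. In cKO cultures of day 3 they were 112.1 and 84.7, with ranges of 63.0 to 246.1 and 41.8 to 106.7 that overlapped. By group mean, Tnfsf11 and Acp5 followed in every group, at 0.384 to 2.67, and the other members lay at or below 0.548. In cKO cultures of day 3 the range of Tnfsf11, 0.0820 to 1.54, overlapped those of lower members. Among them were Csf1r (0.323 to 0.680) and Atp6v0d2 (0.0397 to 1.33). Cartilage libraries read transcript ends and were not compared between genes.

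Several genes that define myeloid cells, the lineage from which osteoclasts come, were at or near 0 in the cultures. Of 20 macrophage and monocyte markers, 8 passed the filter on day 0 with 5 called higher and 0 lower, and 6 passed on day 3 with 4 called higher and 0 lower, where 33.0% and 25.5% of all genes were called higher. The day 3 count was 2 without cKO replicate 1 or 3 and with the replicate block, and 1 gene was called lower without cKO replicate 4. On day 0 the genes higher were led by Coro1a (3.81), Mrc1 (2.45), Cd14 (1.89) and Ptprc (1.88). The list summed to 9.48 to 13.99 CPM in control and 16.6 to 33.3 CPM in cKO cultures of day 3, where the genes called higher were Cd68 (3.09), Coro1a (1.78, called in 5 of 13 alternatives), Cd14 (1.11, called in 9 of 13) and Mrc1 (0.83). The complement genes C1qa, C1qb and C1qc, the adaptor Tyrobp and the calcitonin receptor Calcr had 0 counts in all 8 cultures of day 3. The lineage factor Spi1 (PU.1) had at most 1 count in any of them. Among the 25 osteoclast signalling genes, 11 of 18 that passed were higher and 2 lower on day 0 (median 0.62), and 13 of 19 were higher and 0 lower on day 3 (median 0.98), against a median of 0.01 for all genes on both days. Fcer1g and Coro1a on both days, Ptprc on day 0, and Prdm1, Cd68, Cd14 and Trem2 on day 3, passed the filter through the cKO cultures. A difference was thus a condition of their being tested, and the counts and medians of these lists were in part set by the filter. Trem2, a receptor of osteoclasts and macrophages, rose by 4.38 on day 3 (adjusted p 2.23e-06), and the Csf1r ligand Il34 by 2.67 (adjusted p 3.92e-05). The signalling adaptor Fcer1g had 1 to 2 counts in control and 101 to 188 counts in cKO cultures of day 3, and Prdm1 had 0 to 2 and 10 to 376 counts. On day 0 Fcer1g had 2 to 7 counts in control and 12 to 25 in cKO cultures, Il34 rose by 1.06 (adjusted p 5.785e-04), Fos fell by 1.53 (adjusted p 1.08e-06) and Mitf rose by 1.02 (adjusted p 1.87e-05). Without day 3 cKO replicate 4, 2 genes of this list were called lower on day 3.

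Of 23 acid secretion genes, 7 were called higher and 8 lower on day 0, close to the 33.0% and 31.6% of all genes. On day 3, 9 of 22 were higher, 1 was lower and 12 were not called, where 25.5% and 22.6% of all genes were called. In a fit of all 14 cultures the day 0 counts were 2 and 2, and without day 3 cKO replicate 4 the lower count of day 3 was 3. Atp6v1g1, a pump subunit, fell by 0.91 on day 0 (adjusted p 2.476e-08), where Atp6v0a1 rose by 0.38. On day 3 the genes with the largest changes were Slc37a2 (1.85), Ostm1, Tcirg1 and Snx10 (0.81). Tcirg1, the pump subunit of the osteoclast ruffled border, rose by 0.68 on day 0 (adjusted p 5.34e-05) and 1.21 on day 3 (adjusted p 4.67e-05), and Ostm1, partner of a lysosomal chloride channel, by 0.67 on day 0 and 1.28 on day 3. Chondrocyte markers fell over the same cultures, 14 of 15 on each day. Skeletal muscle markers rose, 6 of 8 that passed on day 0 and 9 of 9 on day 3. On day 3 the 10 muscle markers summed to 2.57 to 3.01 CPM in control and 174.8 to 2254 CPM in cKO cultures. Some of them thus passed the filter only through the cKO cultures, so their count was in part set by the filter. Osteoblast markers gave 2 higher and 2 lower of 7 on day 0 and 6 higher of 8 on day 3, and endothelial markers 4 higher and 1 lower of 6, then 1 higher and 1 lower of 4. The part of these other cell programmes in the members' changes was not tested.

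**Figure D5:**
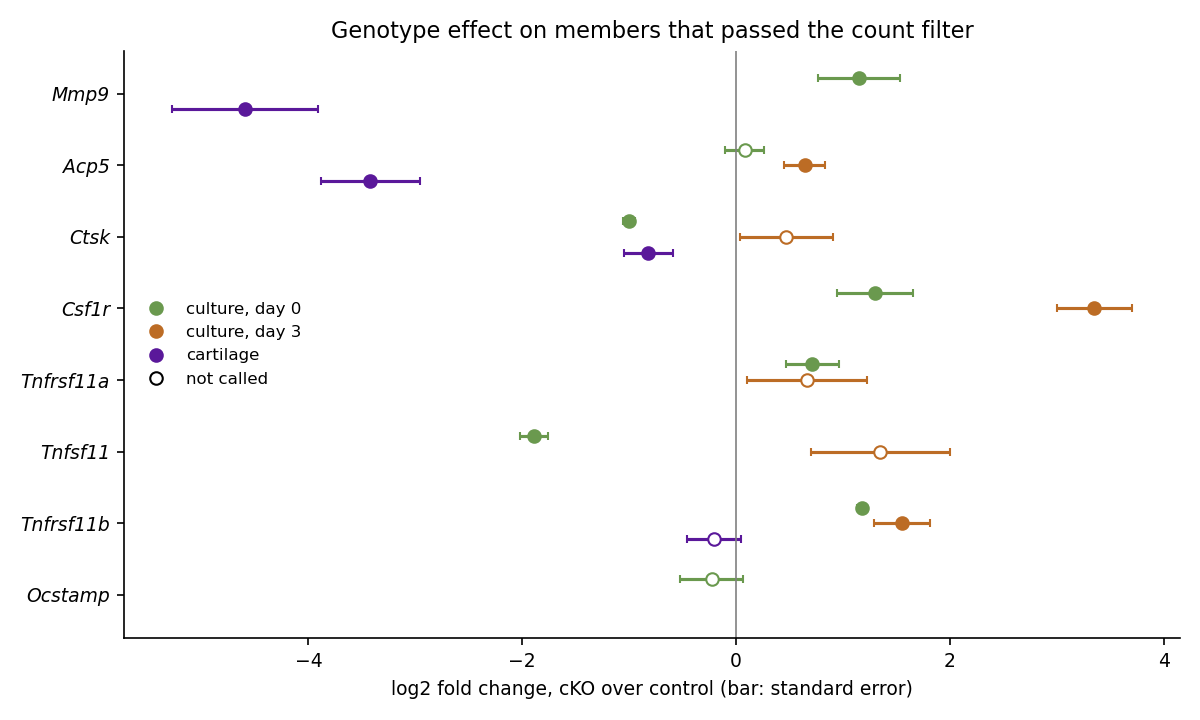
Log2 fold change, cKO over control, with its standard error, for members that passed the count filter in cultures of day 0 (green), cultures of day 3 (orange) and cartilage (purple); open circles were not called at an adjusted p of 0.05. Mmp9 and Acp5 lie at −4.59 and −3.42 in cartilage and at or above 0.08 in cultures.

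Across the sources, Mmp9 was called lower in cartilage and higher on day 0, and Acp5 lower in cartilage and higher on day 3. Mmp9 passed the filter through the controls in cartilage and through the cKO cultures on day 0, so both of its calls were conditioned on a difference. The same held for Acp5 in cartilage. Ctsk was called lower in cartilage and on day 0. No test spans the cartilage and culture tables, which were normalized separately. In absolute terms the cultures held little of either: Mmp9 reached at most 0.868 CPM and Acp5 4.49 CPM in any culture.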

How the data were processed

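RNA was sequenced from 14 chondrocyte cultures with a stranded kit and from 8 cartilage samples with a barcoded 3′ method carrying molecular identifiers, per the labels' protocols. Culture tables hold estimated counts as the authors deposited them, one value a gene, rounded to whole numbers here, and the authors deposited cartilage both as whole-number counts (used here) and as estimated counts (an alternative). Per the submitters' processing notes the build was GRCm38, and UMI-tools 1.1.1, Trim Galore 0.6.7, HISAT2 2.2.1, featureCounts 2.0.1 and DESeq2 1.34.0 were named for the cartilage samples; the counting tool of the cultures is not given in the sources used here, nor whether identifiers were collapsed in the cartilage counts. Of the identifiers, 34582 of 34866 and 23884 of 23911 matched a symbol. No sample column was set aside (0 unused).

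The main test was edgeR 4.0.16 in R 4.3.3 (quasi-likelihood, TMM scaling, filterByExpr at 10 counts and 15 in total, Benjamini-Hochberg adjustment over all genes tested), called at an adjusted p under 0.05. Each table was fitted alone, with sex as a term in cartilage; all 14 cultures in 4 groups gave changes between days. CPM values carry the TMM scaling. The SE came from the log2 fold change and its F statistic (their ratio, F under a square root), and a 95% interval is 1.96 SE to each side. Genes under the filter in cartilage were compared by exact permutation of log2(CPM + 1), an addition made after seeing the data. Alternatives were DESeq2 1.42.0, its size factors in edgeR, no filter, the replicate block, all cultures in 1 fit, estimated counts, no sex term and each library left out. Scripts were tested on simulated counts. Chi-square over degrees of freedom between replicates was 3.53 to 138.4, so each library counted as 1 sample. Floors cover counting error only, while SEs and intervals include the spread between replicates.

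The 10 members, the other gene lists and the tests were chosen with earlier results of these data known. The text accounts for all members and names, for the lists of osteoclast signalling, acid secretion, macrophages, red cells and hypertrophic chondrocytes, the up to 4 called genes with the largest absolute change (red cells and hypertrophic chondrocytes in cartilage only), and the 5 genes nearest in pattern to Acp5 and to Mmp9. Spi1, Tyrobp, Calcr, C1qa, C1qb, C1qc, Nfatc1, Csf1, Ctss, Cd68 in cartilage and Itgb3 were named after their values were seen. Gene lengths came from GENCODE M21 and promoters from RefSeq (GRCm38.p6).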

Additional observations from a re-analysis of the deposited data

Results flagged for a closer look

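Among 32 groups of 4 libraries tested for a library far from its fellows, 3 were flagged, and chance flags about 1 in 20. Ctsk in cKO replicate 4 of day 3 was 371.7 CPM, with the other cultures of the group at 95.1 to 111.7 CPM. Atp6v0d2 in the same culture was 3.614 CPM, with the others at 0.108 to 0.252 CPM. Mmp9 in cartilage cKO replicate 2 was 21.87 CPM, with the others at 0.840 to 1.78 CPM. The genotype effect differed between day 3 and day 0 for Tnfsf11 by 3.24 and for Csf1r by 2.05 on the log2 scale (edgeR interaction, adjusted p 0.0112 and 0.0235).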

How the results depend on the processing

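DESeq2 called 2 members higher on day 0 in place of 4, and 357 genes in cartilage in place of 544. Fitting all 14 cultures together called 2 members higher and 1 lower on day 0, and 6260 genes in place of 10023. Without the filter 1044 genes were called in cartilage, with 4 members lower (Csf1r added), and the estimated counts called 2 genes in the interaction with sex. Leaving out 1 library at a time gave 2 to 3 members higher on day 0, 0 to 1 lower on day 3, 362 to 630 genes called in cartilage, 1591 to 4051 in the interaction of genotype and day, and 1 to 6 in that of genotype and sex. On day 3 it moved the log2 fold change of Ctsk from −0.27 to 0.66 and of Tnfrsf11a from −0.11 to 0.93, and in cartilage that of Tnfrsf11b from −0.42 to 0.06. The Tnfrsf11a interaction with day ran from −0.82 to 0.19. The change from day 0 to day 3 in cKO cultures ran from −0.50 to 0.13 for Mmp9, from −0.28 to 0.71 for Tnfrsf11a and from −0.01 to 0.71 for Tnfsf11, the last without cKO replicate 4. The interaction with sex ran from −0.66 to 1.90 for Acp5 and from −0.35 to 0.72 for Ctsk. The cartilage difference in the log2 ratio of Tnfsf11 to Tnfrsf11b ran from −0.57 to 0.18. The cause of these shifts was not tested.

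Same-numbered replicates did not pair: their deviations correlated at −0.026 to 0.246 on day 0, −0.151 to −0.078 on day 3 and −0.078 to 0.262 in cartilage, and 1 of 3, 0 of 4 and 2 of 4 correlated best with their own number. With the replicate number as a block, 9724, 5391 and 576 genes were called, and 2490 in the interaction with day. Under the block Tnfrsf11a on day 0 (adjusted p 0.0572) and Acp5 on day 3 (adjusted p 0.0548) were not called, and Ctsk was called in the interaction with day (1.18, adjusted p 0.0444). Depth limits the 6 members under the filter in cartilage, where 3 counts are 1.54 to 2.75 CPM.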
